A study of Rattus norvegicus with 8 samples.

Results

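Primary rat Schwann cells that had been given the S100A8/A9 protein complex for 1 h were compared with an unstimulated culture of Schwann cells, on 1 array each. These 2 samples, of the 8 in the series, were chosen by their headings in the authors' table of log2 values, and their genes were compared by the log2 ratio of 1 h minus unstimulated. The other 6 arrays held sciatic nerve at day 1 after transection (proximal, distal and contralateral), spinal cord at day 5 (dorsal hemisection and C-level control), and Schwann cells given S100A8/A9 for 24 h. Each nerve and cord sample pooled 3 Sprague-Dawley rats. The Schwann cells came from sciatic nerves of Sprague-Dawley pups of postnatal day 1 to 3. Fibroblasts had been removed with AraC and with a Thy1.1 antibody and complement, and S100 staining put the purity above 99%. The protocol, given alike for all 3 cultures, describes expanded, antimitotic-treated cells of passage 3 to 7, grown with 10% serum, 4 µM forskolin (which raises cyclic AMP) and 21 µg/ml pituitary extract. S100A8/A9 was given at 5 µg/ml. Its species is not stated in the sources used here. The unstimulated culture was of 24 h, so stimulation and time in culture cannot be told apart at 1 h. The protocol text used here ends before it describes the stimulation, so the medium used during it is not known.

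S100A8 and S100A9 are small calcium-binding proteins that neutrophils and monocytes release at sites of injury. As a complex they act as a danger signal, chiefly through Toll-like receptor 4 with its co-receptors MD-2 and CD14 and through RAGE, and these receptors lead to NF-kB, MAP kinases and chemokine genes. Schwann cells wrap peripheral axons in myelin, and after nerve injury they lower their myelin genes, divide and recruit macrophages, for which the chemokine Ccl2 is best known.

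The headings and the scanner files pair samples with arrays differently, and the headings are followed here. The column headed 1 h ranks probes as does a scan recorded under the proximal nerve (Spearman rho across probes 0.99984), and the column headed unstimulated as a scan recorded under the cord hemisection (0.99981). The scans recorded under the 2 Schwann samples themselves gave 0.841 and 0.862. For 7 of the 8 samples the scan was recorded elsewhere. Cell type markers cannot test which Schwann culture is which, so each direction below rests on the headings. The arrays lay on 1 slide and were read in 1 scan. Between 65.1% (1 h) and 67.4% (unstimulated) of probes were well above background on these arrays, and the 2 columns ranked probes alike (rho 0.991). Probes of the same gene spread by 0.188 (SD of the log2 ratio, 1544 genes), 8 spike-in probes stood 0.091 to 0.294 higher at 1 h, and with 1 array a group no difference has a replicate check. Values after ± are a technical error only. Each comes from the SD of repeated spots pooled over probes of similar signal. That SD was scaled by the number of spots of the gene's probe and combined over both arrays. It is not the spread of the gene's own spots.

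The sequences upstream of 4 of the genes that differed most are shown first. They were chosen because 2 are chemokine genes that moved together and all 4 hold a match to a motif searched. A match was thus a condition of being shown, and the shares over all genes that differed are given further below. The sequences are the 250 bases before the RefSeq start site in assembly GRCr8, and capitals mark the matches. The motifs, searched on both strands, were GGG, any 3 bases and TTCC (the kind of sequence NF-kB binds), TGANTCA (AP-1) and TGACGTCA (CREB). N stands for any base. The first 2 patterns thus admit any base at some positions, and a match is one of letters and not of binding. The genes are Ccl7 (chr10:67513845-67514094, plus strand), Cxcl1 (chr14:17479322-17479571, minus strand), Calca (chr1:178317530-178317779, minus strand) and Entpd2 (chr3:28611566-28611815, plus strand).
Ccl7: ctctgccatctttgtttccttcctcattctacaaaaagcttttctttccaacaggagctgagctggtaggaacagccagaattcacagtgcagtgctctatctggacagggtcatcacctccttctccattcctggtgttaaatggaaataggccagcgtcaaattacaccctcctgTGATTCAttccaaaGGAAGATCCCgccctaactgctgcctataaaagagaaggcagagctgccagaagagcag
Cxcl1: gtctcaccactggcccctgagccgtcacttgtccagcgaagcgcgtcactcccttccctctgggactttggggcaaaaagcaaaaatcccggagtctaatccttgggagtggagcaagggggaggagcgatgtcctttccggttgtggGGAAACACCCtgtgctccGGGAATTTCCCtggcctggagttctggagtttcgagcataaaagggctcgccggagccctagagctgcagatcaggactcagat
Calca: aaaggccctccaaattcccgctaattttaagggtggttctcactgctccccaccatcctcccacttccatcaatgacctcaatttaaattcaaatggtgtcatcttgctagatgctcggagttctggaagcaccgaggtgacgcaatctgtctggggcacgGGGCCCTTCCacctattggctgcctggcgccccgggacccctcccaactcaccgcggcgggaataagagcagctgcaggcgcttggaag
Entpd2: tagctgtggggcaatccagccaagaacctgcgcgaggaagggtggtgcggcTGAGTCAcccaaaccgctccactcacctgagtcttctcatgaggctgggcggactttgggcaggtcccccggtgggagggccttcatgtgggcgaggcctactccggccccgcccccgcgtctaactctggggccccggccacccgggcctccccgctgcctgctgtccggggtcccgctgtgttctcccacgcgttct
In Ccl7 the capitals are an AP-1 match that begins at -73 from the start site and an NF-kB match at -59. In Cxcl1 they are NF-kB matches at -102, -84 and -83, the last 2 of which overlap and are read from both strands. Calca holds an NF-kB match at -89 and Entpd2 an AP-1 match at -199. Ccl2 was not in the sequence table.

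A gene stood as higher or lower where its levels were at least 2-fold apart. Where its probe was not well above background in 1 of the 2 cultures, that side was set to the higher of its own value and the lowest value of any probe well above background there, and the result is written as a bound. A ratio could be formed for 10601 of the 12765 genes in the authors' table, and 150 of these were at least 2-fold higher at 1 h (1.41%) and 119 at least 2-fold lower (1.12%), together 2.54%. Of them 37 and 21 were bounds. Each list count below is to be read beside these shares over all genes, 1.41% higher and 1.12% lower. With another background correction (normexp) 43 were higher and 49 lower, and 81 of the 86 named genes past 2-fold had a smaller log2 ratio. At 4-fold, 14 genes were higher and 14 lower. The median log2 ratio over all genes was -0.0153, and 91.9% lay within 1.5-fold. Of 33 genes past 2-fold that several probes measured, 33 had the same sign on every probe, and on 21 every probe was at least 2-fold apart. In 100 of all 269 genes past 2-fold both levels were below 7 on the log2 scale. Against the same unstimulated array the culture of 24 h with S100A8/A9 had 31 genes higher (0.29%) and 32 lower (0.299%), together 0.589% of 10702.

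**Figure D1:**
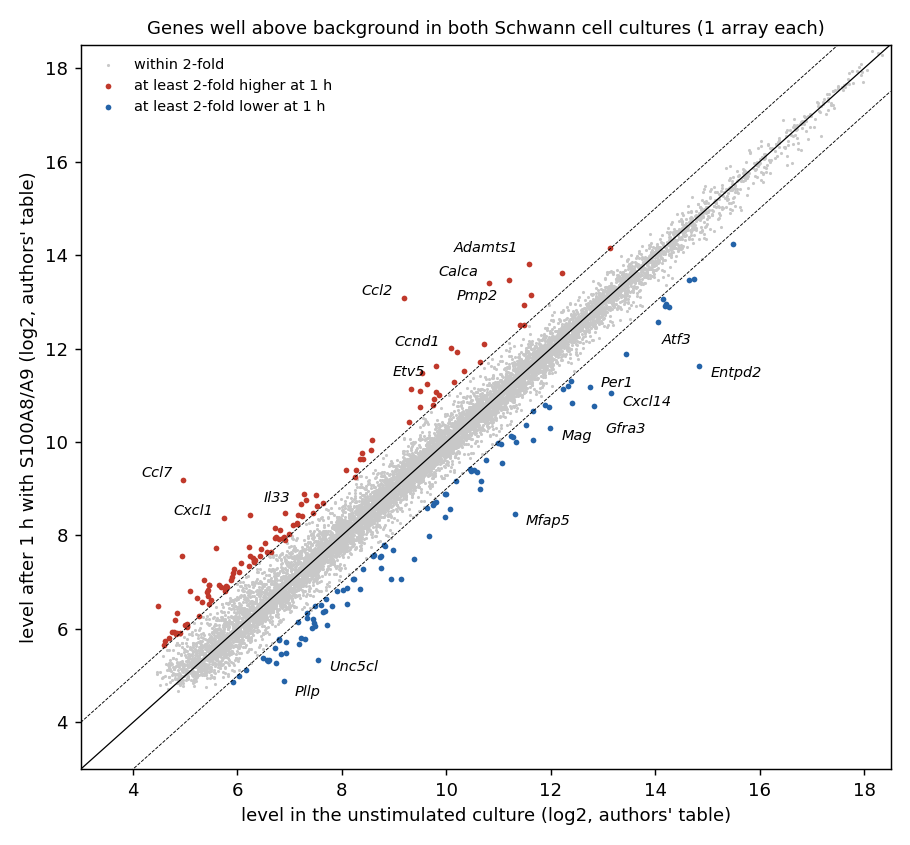
Levels of 10242 genes well above background on both arrays, with the unstimulated culture on the horizontal axis and the culture of 1 h with S100A8/A9 on the vertical axis (log2 values of the authors' table). Each point is a gene, the solid line marks equal levels and the dashed lines 2-fold. Red points (113 genes) are at least 2-fold higher and blue points (98) at least 2-fold lower at 1 h, with Ccl7 and Ccl2 farthest above the line and Entpd2 and Mfap5 farthest below.

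The chemokines Ccl7 and Ccl2 had the largest differences among genes measured on both arrays. Ccl7 (NM_001007612), which attracts monocytes, had a level of 4.96 in the unstimulated culture, 9.19 at 1 h and 5.71 at 24 h, and so was 18.7-fold higher at 1 h (log2 ratio 4.22 ± 0.20). Ccl2 (NM_031530), the main monocyte chemoattractant, stood at 9.19, 13.08 and 9.38, or 14.9-fold higher at 1 h (3.89 ± 0.03). Cxcl1 (NM_030845), which attracts neutrophils, stood at 5.75, 8.37 and 6.04, or 6.16-fold higher (2.62 ± 0.10). For all 3 genes the culture of 1 h was the high one, and that of 24 h lay within 2-fold of the unstimulated one. With normexp their log2 ratios were 2.63, 3.69 and 1.61. The probe of Ccl2 carried an outlier flag on a spot. Of the 269 genes past 2-fold 9 carried such a flag, among them Ngfr, Cd9, Ccng2 and Areg, which are described below.

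In the RefSeq gene order Ccl2, Ccl7, Ccl11, Ccl12 and Ccl1 are consecutive protein-coding genes. Ccl1, a T cell chemokine, was at least 4.09-fold higher at 1 h: its levels were 4.17, 6.32 and 2.59, and only that of 1 h was well above background. With normexp its log2 ratio was 0.71. Ccl11, the eosinophil chemokine eotaxin, stood at 7.07, 7.92 and 6.79 and stayed within 2-fold. Ccl12 was not well above background in either culture. Ccl1 is not in the chemokine list. Among the 15 genes of that list with a ratio 3 (Ccl7, Ccl2 and Cxcl1) were higher and 1 lower, and the median of -0.088 lay near that of all genes. The lower one was Cxcl14, a chemokine of epithelia and stroma, with levels of 13.15, 11.06 and 13.28, or 4.28-fold lower at 1 h. Cxcl12 stood at 11.71, 11.02 and 11.81. A further 16 chemokine genes, Cxcl2, Cxcl10 and Ccl20 among them, were well above background in neither culture.

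On the other arrays Ccl2 had levels of 15.58 in the proximal nerve, 15.29 in the distal nerve, 11.13 in the contralateral nerve, 12.54 in the hemisected cord and 8.41 in the control cord. Ccl7 stood there at 14.07, 13.83, 10.26, 9.89 and 4.90, and Cxcl1 at 12.43, 11.26, 7.43, 6.10 and 5.69. The culture of 1 h thus lay above the contralateral nerve and below both cut ends for Ccl2 and Cxcl1, while for Ccl7 it lay below all 3 nerve samples.

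**Figure D2:**
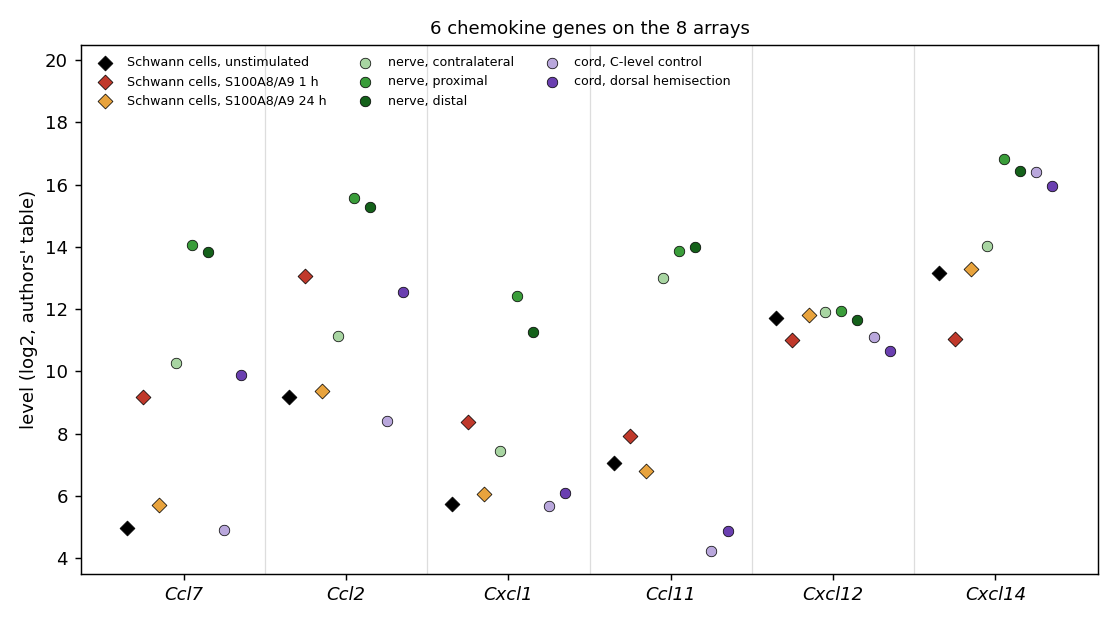
Levels (log2 values of the authors' table, vertical axis) of 6 chemokine genes on each of the 8 arrays, 1 point per array, with diamonds for Schwann cells and circles for nerve and cord. For Ccl7, Ccl2 and Cxcl1 the red diamond of 1 h stands above those of the other 2 cultures, and for Cxcl14 below them.

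The receptors named for S100A8/A9 were within 2-fold in all 10 that had a ratio (median 0.096). Tlr4 was not well above background in any of the 3 cultures (2.14, 4.19 and 4.05), whereas its co-receptors were detected: Ly96, which encodes MD-2, at 8.62, 8.87 and 8.63, and Cd14 at 6.0, 6.96 and 5.94. Ager, which encodes RAGE, stood at 6.34, 6.24 and 6.38. Bsg, a receptor for S100A9, stood at 14.01, 13.68 and 13.81. The scavenger receptor Cd36 was not well above background, and Tlr2 was above it only at 1 h (5.22). S100a8 and S100a9 themselves were well above background in neither culture.

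The 16 measured genes of the Toll-like receptor and NF-kB pathway were all within 2-fold (median -0.128), from Myd88 at 12.19, 11.76 and 12.43 to Rela, the p65 subunit, at 11.57, 11.45 and 11.55. Of 24 feedback inhibitors and early targets of NF-kB 2 were higher and 1 lower (median -0.089). Nfkbia, the inhibitor IkB-alpha and an early target, stood at 10.32, 10.32 and 10.57, and the adhesion molecule Icam1 at 11.08, 11.05 and 10.71. Plau, the urokinase plasminogen activator, was 2.28-fold higher (6.03, 7.21 and 6.38), and Cd83, an activation antigen, at least 2.13-fold higher. Bcl3, a nuclear IkB protein, was 2.24-fold lower (11.28, 10.12 and 11.16). With normexp Plau and Cd83 stood at 0.70 and 0.36. Il6, Tnf, Il1b, Ptgs2 and Mmp9 were well above background in neither culture.

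Among 14 cytokines with a ratio Il33, an alarmin kept in the nucleus, was the 1 that passed 2-fold: it stood at 7.22, 8.68 and 6.51, or 2.74-fold higher at 1 h. Its receptor Il1rl1, picked after its values were seen, stood at 11.62, 13.14 and 12.18, a log2 ratio of 1.52 on 1 probe and 0.56 on another. Casp1, the protease that matures interleukin 1 and interleukin 18, was at least 6.21-fold higher, with levels of 3.98, 6.92 and 4.57, and normexp gave a log2 ratio of 1.21. The cytokines Lif (7.02, 6.98 and 6.92) and Csf1 (10.80, 10.69 and 10.62) differed little. Of 25 interferon response genes 2 were higher, Usp18 at 2.15-fold and Isg15 just at 2-fold, and none lower. Both had low levels (5.79 and 6.90, and 5.04 and 6.04), and with normexp both were under 2-fold (0.53 and 0.40).

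Of 34 AP-1 and immediate early transcription factors 3 were higher and 2 lower (median -0.008). Fosl1, which encodes the AP-1 subunit Fra-1, stood at 9.62, 11.24 and 9.43 and was 3.08-fold higher at 1 h. The nuclear receptor Nr4a3 (5.94, 7.28 and 6.35) and the repressor Bhlhe40 (7.14, 8.26 and 7.09) were 2.53-fold and 2.17-fold higher, but under 2-fold with normexp (0.70 and 0.76). Atf3, a stress factor of injured nerve, was lower at 1 h: its levels of 14.05, 12.57 and 14.12 gave a 2.79-fold difference. The fast serum-response genes gave no common picture, with Fos at 9.79, 8.81 and 10.06, Jun at 12.34, 11.94 and 12.38, Egr1 at 7.73, 8.39 and 7.71 and Myc at 10.65, 11.40 and 10.86.

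Genes of the MAP kinase and growth factor response, many of them feedback regulators, had a median of 0.227 over 34, with 5 higher and 0 lower. With normexp the median of this list was 0.12, and that of all genes -0.015. Both list medians lie inside the range by which spike-in probes stood higher at 1 h (0.091 to 0.294). Etv5, an ETS factor downstream of ERK, stood at 9.81, 11.62 and 9.77 and was 3.51-fold higher, and its other probe gave a log2 ratio of 1.31. Phlda1 stood at 8.57, 10.04 and 8.65 (2.77-fold), and the kinase Sgk1 at 8.39, 9.77 and 8.12 (2.60-fold). The kinase Plk3 was 2.40-fold higher (6.45, 7.71 and 6.29) and the EGF receptor ligand Areg 2.33-fold (5.90, 7.12 and 6.71); these had low levels and were under 2-fold with normexp (0.69 and 0.65). Members within 2-fold included the ERK inhibitors Spry2 (7.70, 8.57 and 8.03), Dusp4 (6.48, 7.19 and 6.61) and Dusp5 (8.50, 9.11 and 8.58).

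The genes of cell cycle entry and arrest held 1 higher and 2 lower members of 23. Cyclin D1, Ccnd1 (NM_171992), which carries cells from G1 towards S phase, stood at 10.08, 12.02 and 10.00 and was 3.83-fold higher at 1 h. The inhibitor of cyclin-dependent kinases Cdkn1c was 2.96-fold lower (9.97, 8.40 and 10.10; its other probe -0.89), and the cyclin Ccng2, linked to arrest, 2.10-fold lower (9.77, 8.70 and 10.07; normexp -0.93). Of 36 replication and mitosis genes 35 were above 0, with a median of 0.467, although only Ccne2, a cyclin of the G1/S transition, passed 2-fold (6.90, 7.97 and 6.75; normexp 0.75). The replication licensing gene Cdc6 stood at 8.28, 9.10 and 8.05, thymidylate synthase Tyms at 8.38, 9.10 and 8.13, the helicase subunit Mcm3 at 12.62, 13.20 and 12.48 and the mitotic kinase Plk1 at 13.08, 13.58 and 12.74. The same list had a median of -0.234 at 24 h against the same unstimulated array.

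Of 20 myelin genes with a ratio 5 were lower at 1 h, 1 was higher and 14 were within 2-fold, while 18 lay below 0 and the median was -0.618. Mag, the myelin-associated glycoprotein, stood at 11.99, 10.29 and 12.03 and was 3.25-fold lower, and its other probe gave -2.85. The culture of 1 h was the low one, and that of 24 h lay close to the unstimulated one. The membrane protein Pllp (6.89, 4.89 and 7.06) was 4.00-fold lower, the tetraspanin Cd9 (8.97, 7.70 and 9.01) 2.42-fold and Mbp, myelin basic protein (9.63, 8.58 and 10.12), 2.06-fold. Under normexp Pllp stood at -0.92 and Mbp at -0.88. Within 2-fold but below 0 were Pmp22 (17.17, 16.54 and 17.26), Cldn19 (-0.98) and Ugt8 (-0.92), which makes the myelin lipid galactocerebroside. The exception was Pmp2, the fatty acid-binding P2 protein of myelin: it stood at 11.19, 13.47 and 10.63 and was 4.83-fold higher at 1 h, with 2.39 on its other probe.

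**Figure D3:**
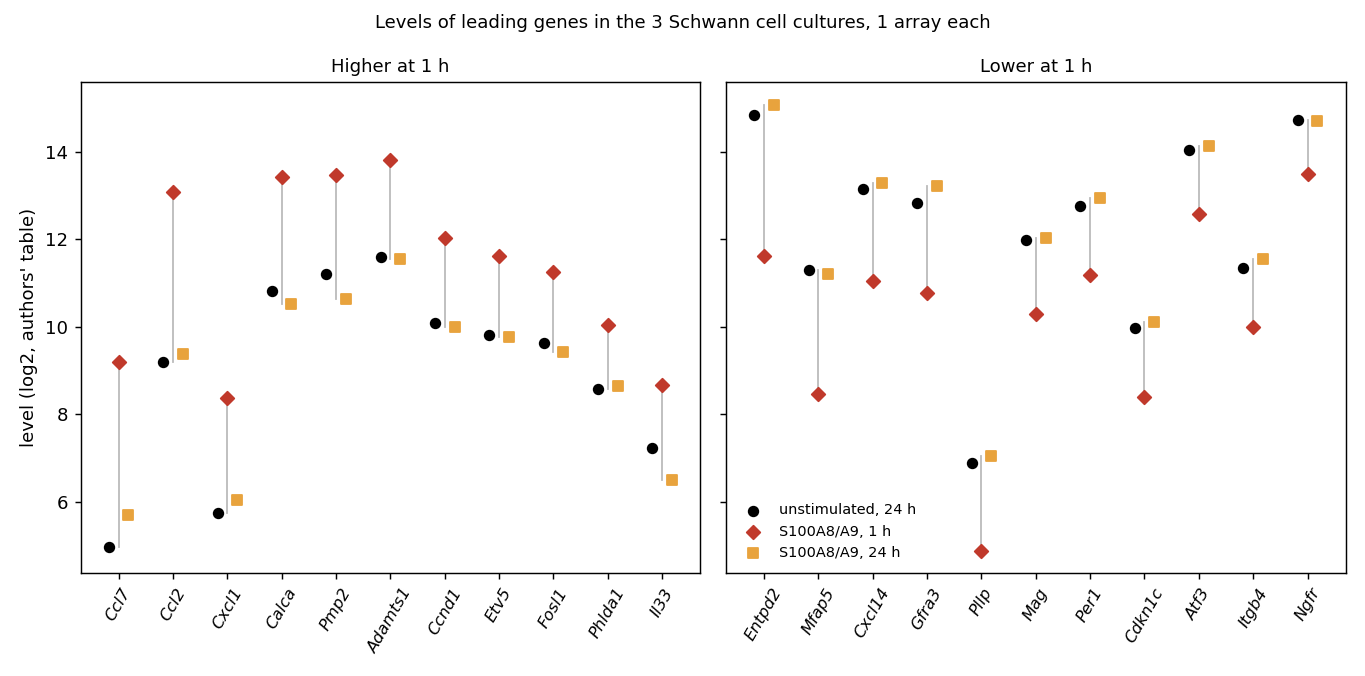
Levels (log2 values of the authors' table, vertical axis) of 11 genes higher and 11 genes lower at 1 h in the 3 Schwann cell cultures, with 1 array each. Black circles are unstimulated cells, red diamonds 1 h and orange squares 24 h with S100A8/A9. The 22 genes were picked by hand. In each the diamond stands apart and the circle and square lie within 2-fold, as for Ccl2 (9.19, 13.08 and 9.38). Entpd2 (14.84, 11.62 and 15.07) is an example of the lower genes. Unc5cl (7.55, 5.34 and 1.72) and Pdia5 (7.71, 6.09 and 6.23), among the lowest 20, lack this pattern and are not shown.

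Markers of the labelled cell type were detected. Of 34 listed Schwann lineage factors and markers 31 had a ratio. So did 12 of 18 listed fibroblast markers, so this count does not tell cell types apart. Sox10, which specifies the lineage, stood at 14.94, 14.37 and 14.84. S100b stood at 13.14, 13.23 and 13.14, and the growth factor receptor Erbb3 at 9.47, 9.04 and 9.31. Of the 31 genes of the Schwann list 3 were lower and 0 higher (median 0.030). Among them were the neurotrophin receptor Ngfr (14.73, 13.50 and 14.70, 2.35-fold) and the laminin receptor subunit Itgb4 (11.33, 10.00 and 11.56, 2.52-fold). Egr2, which drives myelination, stood at 6.11, 7.01 and 6.37, and Sox2, which opposes it, at 13.71, 13.26 and 13.89. In genes of repair Schwann cells 3 of 25 were higher and 1, Atf3, lower (median 0.005). The 3 were Igf1 (6.44, 7.56 and 6.53), Nrg1 (6.80, 7.92 and 6.83) and the neuropeptide precursor Vgf (7.14, 8.24 and 6.99), each between 2.14-fold and 2.18-fold and each under 2-fold with normexp. Gdnf, a neurotrophic factor, stood at 7.45, 8.01 and 7.50.

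Markers of other cells were also read. Of 20 macrophage and monocyte markers 10 were well above background in neither culture, among them Ptprc, Itgam, Cd163 and Spi1. The other 10 had a median of -0.097, and 1 was lower, the complement gene C1qb (14.14, 13.07 and 14.27); its partners C1qa and C1qc were among the 10 not detected. Summed on the linear scale, the markers of this list in the table came to 20872 in the unstimulated culture and 11079 at 1 h, and to 144133 and 111360 for the fibroblast list. A single gene made up most of each sum: C1qb gave 86.3% and 77.4% of the first, and S100a4 75.6% and 77% of the second. Without them the sums were 2861 and 2504 for the macrophage list and 35201 and 25630 for the fibroblast list. Most of what remained again came from 1 gene each, Cx3cr1 (10.62 and 10.29) and Col14a1 (14.72 and 14.26). The fibroblast markers Dcn and Lum were well above background in neither culture. Of 12 fibroblast markers with a ratio 1 was lower, the microfibril gene Mfap5 (11.31, 8.46 and 11.20, 7.20-fold), while Pdgfra (7.17, 7.26 and 7.38) and Thy1 (8.55, 8.26 and 8.85) were within 2-fold (median 0.012). No neutrophil (4 with a ratio), endothelial and mural (9) or neuron marker (7) passed 2-fold. In epithelial and muscle markers 3 of 9 were higher, Epcam (5.36, 7.06 and 5.98), Myh1 (6.87, 7.95 and 6.85) and Krt18 (5.26, 6.27 and 3.17), and with normexp each was under 2-fold. The part of other cells in the differences between cultures was not tested, and fewer cells of a type and less RNA per cell cannot be told apart.

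The other leading genes that were higher at 1 h had varied roles. Calca, which encodes calcitonin and the neuropeptide CGRP, stood at 10.81, 13.41 and 10.52 and was 6.05-fold higher (2.60 ± 0.06; 2.46 on its other probe). Adamts1, a secreted metalloproteinase with thrombospondin motifs, stood at 11.59, 13.81 and 11.56 and was 4.68-fold higher. Among 25 metalloproteinases, plasminogen activators and inhibitors, Adamts1 and Plau were higher and Mmp17 (8.95, 7.07 and 8.90) lower. Liph, a lipase that forms lysophosphatidic acid, was at least 21.4-fold higher on a probe with 1 spot per array. Its levels were 2.32, 8.70 and 2.71, with only that of 1 h well above background, and normexp gave 2.16. Hmga2, a chromatin protein of growing cells, stood at 4.95, 7.57 and 5.12 (6.15-fold; normexp 1.37), and Aldh1a1, which makes retinoic acid, at 9.52, 11.47 and 9.44 (3.84-fold). Gjb2, a connexin of gap junctions, was 3.48-fold higher (9.33, 11.13 and 9.39) and Sertad4 3.01-fold (9.49, 11.08 and 9.55). Fam43a had 4.61-fold on 1 probe (normexp 1.39) and a log2 ratio of 0.45 on another. Clec2d2l1, Chst5, Spmip7 and Spetex2f, between 3.06-fold and 4.01-fold, were also among the highest 20; the first 2 were under 2-fold with normexp. Svs3a and Rassf9, seen above background only at 1 h, were at least 4.42-fold and 3.98-fold higher, and under 2-fold with normexp (0.76 and 0.95).

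Entpd2 (NM_172030), the ectonucleotidase that removes extracellular ATP, had the largest fall among genes measured on both arrays. It stood at 14.84, 11.62 and 15.07 and was 9.31-fold lower at 1 h (-3.22 ± 0.08), and its 3 probes gave -3.22 to -2.95. The probe that gave -3.22 had 1 spot per array. Gfra3, the receptor for the neurotrophic factor artemin, stood at 12.83, 10.78 and 13.21 (4.15-fold lower). Per1, a clock gene that also answers to cyclic AMP and glucocorticoids, stood at 12.75, 11.18 and 12.95 (2.99-fold lower). The culture of 1 h was the low one for all 3 genes. Of 17 clock genes the other members were mostly within 2-fold (median -0.111), with Nr1d1 at 7.82, 8.02 and 7.82 and Dbp at 11.31, 11.09 and 11.21; Bhlhe40 was higher. Other genes in the lowest 20 were Insyn2a (4.18-fold lower), the transketolase-like gene Tktl1 (3.70-fold), Ppfibp2 (3.19-fold), Rasgef1c (a log2 ratio of -1.63), Wscd1 (3.07-fold), Epb41l4b (2.97-fold; normexp -0.998, just under 2-fold), the neuronal protease gene Prss12 (2.95-fold), the detoxifying enzyme Ugt1a6 (2.91-fold) and the cell death gene Bmf (2.84-fold; normexp -0.86). The imprinted noncoding RNA H19 was at least 4.82-fold lower (7.38, 5.11 and 7.12; normexp -1.12).

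For 5 of the lowest genes the unstimulated array, not that of 1 h, was the one apart. Proca1 stood at 8.97, 4.22 and 3.24 and was at least 19.6-fold lower at 1 h, the largest bound among the lower genes. Pom121l2 (8.04, 4.17 and 5.03), Upk2 (7.59, 2.60 and 2.27), Slc9c1 (6.70, 3.74 and 1.72) and Pdia5 (7.71, 6.09 and 6.23) were likewise lower in both cultures with S100A8/A9. With normexp the log2 ratios of Proca1, Pom121l2 and Upk2 were -2.48, -1.76 and -1.48. Those of Slc9c1 and Pdia5 were under 2-fold (-0.88 and -0.97). With its probes averaged, Pom121l2 had a log2 ratio of -1.57, against -3.37 on the probe used. Unc5cl stood at 7.55, 5.34 and 1.72, or 4.61-fold lower at 1 h (normexp -1.28), and its lowest level was that of 24 h. Set against that culture, Unc5cl was at least 0.93 higher at 1 h on the log2 scale. The probes used for Proca1, Pom121l2, Upk2, Slc9c1 and Unc5cl each had 1 spot per array.

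Matrix and signalling lists had few members past 2-fold. Collagens, laminins and matricellular genes had a median of -0.287 over 22, with Col6a2 lower (12.33, 11.21 and 12.36) and Postn, periostin, higher (13.12, 14.14 and 13.12). In 31 genes of TGF-beta, BMP and activin signalling Ltbp1, which holds latent TGF-beta, was 2.21-fold higher (a log2 ratio of 1.15, from 9.85 unstimulated) and Bmp7 at least 3.97-fold higher (4.28, 6.27 and 3.86; normexp 0.63). In 23 adhesion and axon guidance genes the guidance receptor Robo2 was higher (7.24, 8.41 and 7.24, normexp 0.82, mean of its probes 1.80). Sema3b (14.25, 12.88 and 14.43) and the ephrin Efna1 (10.54, 9.40 and 10.89) were lower. CREB and cyclic AMP targets had 3 of 20 higher (Nr4a3, Areg and Vgf) and 1 lower (Per1). With normexp the 3 were under 2-fold (0.70, 0.65 and 0.81), and Per1 stayed past it (-1.55). Glucocorticoid response genes had 1 of 13 higher (Sgk1) and 2 lower (Per1 and the mTOR inhibitor Ddit4, 12.38, 11.31 and 12.48).

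Metabolic and housekeeping lists moved little. Cholesterol synthesis and uptake genes lay above 0 in 23 of 25 (median 0.256), and 0 passed 2-fold. That median lies inside the range by which spike-in probes stood higher at 1 h (0.091 to 0.294). Insig1, the sterol sensor, stood at 10.47, 11.10 and 10.76 and the squalene epoxidase gene Sqle at 13.64, 13.99 and 13.71. Hypoxia and glycolysis genes held 1 higher, the glucose transporter Slc2a3 (4.78, 5.94 and 5.06; normexp 0.37), and 1 lower, Ddit4, of 31. Of 32 genes of ATF4 and the unfolded protein response Ddit4 alone passed 2-fold. No member passed it in 19 SRF and YAP targets, 19 heat shock genes, 23 antioxidant genes, 14 fatty acid synthesis genes, 12 S100 family genes, 50 ribosomal protein genes (median 0.059) or 33 genes of the mitochondrial respiratory chain (median 0.004).

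**Figure D4:**
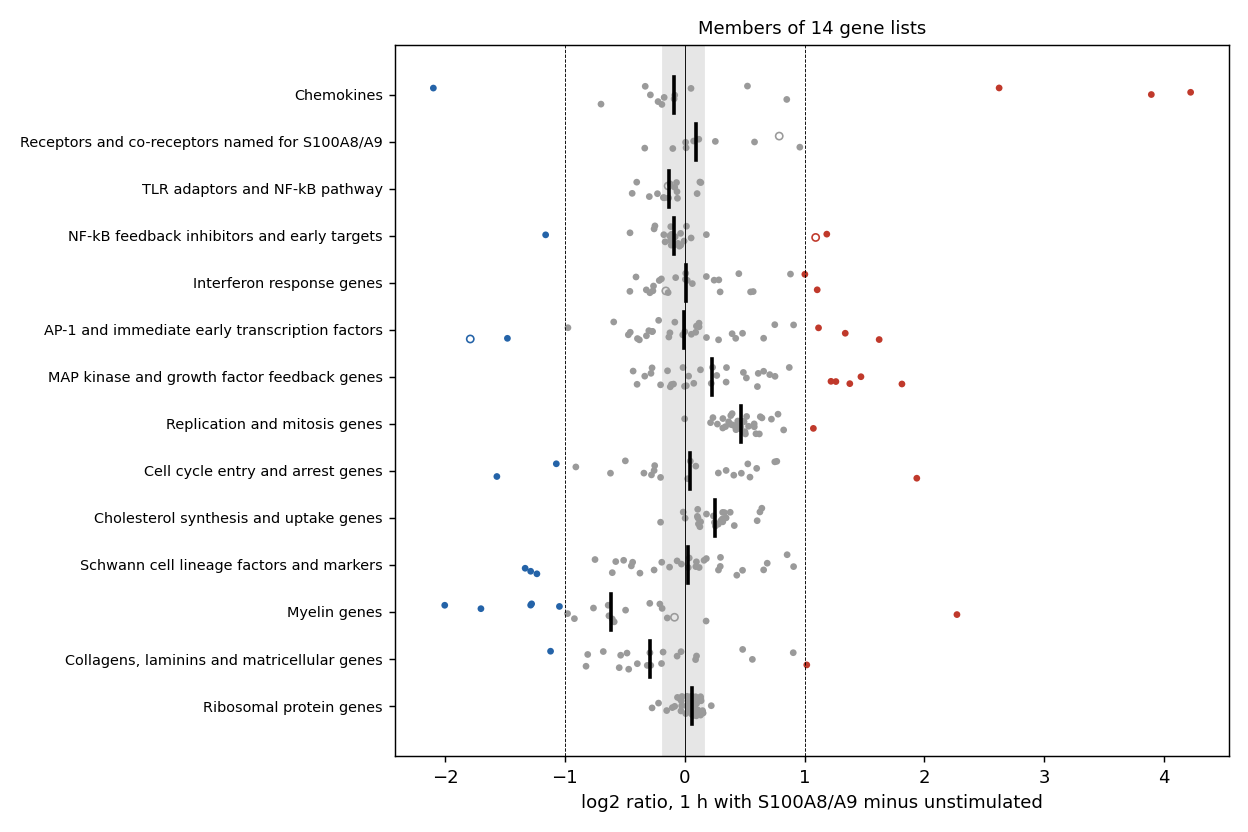
Log2 ratio of 1 h with S100A8/A9 minus unstimulated (horizontal axis) for the members of 14 gene lists, 1 point per gene, with a black bar at each list's median and open points for bounds. The grey band spans the quartiles over all genes (-0.179 to 0.160), dashed lines mark 2-fold, and red and blue points lie beyond them. The bar of the myelin genes (-0.618) lies left of the band and that of the replication genes (0.467) right of it.

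Among all genes that differed, 114 of the 150 higher and 91 of the 119 lower had a RefSeq promoter of 300 bases, 250 before and 50 after the start, some with several starts. An NF-kB match stood in 8.0% of 125 such windows of higher genes, 3.06% of 98 windows of lower genes, 6.24% of 9140 windows of genes with a ratio and 5.37% of all 33469 windows. For AP-1 the shares in the same order were 11.2%, 9.18%, 5.37% and 7.33%, and for the CREB motif 4.8%, 2.04%, 3.17% and 1.83%. The 10 windows of higher genes with an NF-kB match included those of Liph, Cxcl1, Ccl7, Calca, Rassf9, Phlda1 and Cd83, and the 14 with an AP-1 match those of Ccl7, Epcam, Sgk1, Olr1 and Fas. The shares are descriptions of these letters and not of binding.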

How the data were processed

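Total RNA was labelled with Cy3 and hybridised to one-colour Agilent arrays, 1 for each of 8 groups. Per the file headers, the deposited scanner files give linear spot intensity with background subtracted (Feature Extraction 10.7.3.1); the submitters' processing notes say version 10.5. A deposited table by the authors gives log2 values for 24894 probes. Its columns have 1 median (8.03), so it was normalized between arrays in a way that the sources used here do not give.

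The 1 h column minus the unstimulated column gave each log2 ratio. Probes were named by matching their accession to a RefSeq table (assembly GRCr8): 15213 probes matched, with 12765 symbols, and 9681 did not. The probe whose mean over the 8 columns was highest stood for a gene, and other probes are given for only some of the genes where they differ. Flags and errors of spots were taken from the 2 scans whose ranks match these columns, and a gene needed its probe well above background on at least 1 of the 2. Bounds used floors of 4.67 (1 h) and 4.28 (unstimulated). Nothing was tested, since each group had 1 array, and a gene was called at 2-fold. Named were the 20 highest and 20 lowest genes, the 5 highest and lowest bounds, up to 6 members of each of 37 lists, and genes of the S100A8/A9 pathway; the members and lists were chosen with earlier results of these data known. Some genes that this rule names are not reported here. Promoter sequences are those of RefSeq (GRCr8). Alternatives were the matched scans scaled to their 75th percentile, normexp (offset 50, limma 3.58.1, R 4.3.3), other choices of probe, filter and threshold, and the scans as recorded. Python 3.11.15, pandas 2.3.3 and matplotlib 3.10.9 were used. The ratio procedure was tested on simulated data with genes well above background on both arrays, so that test did not cover bounds.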

Additional observations from a re-analysis of the deposited data

Results flagged for a closer look

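Probes that could not be named lie outside every gene comparison above. Of 7454 such probes well above background on both arrays, 65 were at least 2-fold higher at 1 h and 30 at least 2-fold lower. Among 10242 named genes measured on both arrays, 113 were higher and 98 lower. The first counts are of probes and the second of genes, and the unnamed probes did not have the larger share in either direction. The unnamed probes were singled out because they carry a signal that no result by gene name uses.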

How the results depend on the processing

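No paired analysis was possible because each group had 1 array. Normexp on the matched scans gave 43 genes higher and 49 lower, all of them among the 150 and 119, and 55 of the 86 named genes past 2-fold stayed past it, none with another sign. Without a filter or floor 315 were higher and 320 lower, at 1.5-fold 492 and 367, and with the scans as recorded 1323 and 1226, where 51 of 77 named genes had the opposite sign. Set against the culture of 24 h with S100A8/A9, chosen after seeing the data, 179 were higher and 161 lower. Against it the median of the replication genes was 0.714, of fibroblast markers -0.207, of macrophage markers -0.359 and of endothelial markers -0.447, and Unc5cl changed sign to 0.931. Scans scaled to the 75th percentile gave 170 and 174, means of probes 157 and 114, the probe highest in these 2 columns 150 and 120, both arrays above background 113 and 98, and outlier spots left out 147 and 114, with no named gene changing sign in any of the 5. The share of these genes that was higher was 55.8%, and 49.4% with the 75th percentile, 46.7% with normexp and 49.6% without a filter. Low signal limits the fold of genes near background, and 1 array a group limits every value.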
